A study of Saccharomyces cerevisiae with 12 samples.

Results

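Sulfate uptake and assimilation genes of the budding yeast Saccharomyces cerevisiae were followed over 12 expression arrays. The 10 genes were taken by name as steps of the textbook pathway, and each had 1 row among the 5974 open reading frames of the table. They were the sulfate permeases SUL1 (YBR294W) and SUL2 (YLR092W), the activation genes MET3 (YJR010W) and MET14 (YKL001C), and the reductase and phosphatase genes MET16 (YPR167C) and MET22 (YOL064C). The others were the sulfite reductase genes MET5 (YJR137C) and MET10 (YFR030W) and the siroheme genes MET1 (YKR069W) and MET8 (YBR213W). The series set cells labelled ixr1 null against wild type in 3 oxygen conditions, with 2 arrays, lettered A and B, in each of 6 groups. The HMG-box protein Ixr1 binds DNA, and the series examines it in the response to low oxygen.

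The 6 groups were arrays labelled ixr1 null and wild type arrays after a shift to nitrogen, in overnight hypoxia, and in air. All cells were of the BY4741 background and grew at 30 C with 2% glucose in synthetic complete medium. For the shift, flasks that had reached an OD600 of 0.8 in air received nitrogen gas for 3 hours. Overnight hypoxia was growth in sealed jars below 1% oxygen, and only that medium is described as receiving ergosterol (20 mg/l) and Tween 80 (0.5%). Effects of oxygen, of these supplements and of overnight growth in jars cannot be told apart in that condition. BY4741 lacks MET17, HIS3, LEU2 and URA3 function in every group, and Met17 is the enzyme that builds sulfide into homocysteine.

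Sulfate enters yeast through Sul1 and Sul2. Met3 and Met14 activate it to the nucleotide PAPS, Met16 reduces PAPS to sulfite with electrons from thioredoxin, and the sulfite reductase formed by Met5 and Met10 makes sulfide. That reductase carries siroheme, which Met1 and Met8 make from uroporphyrinogen, and Met22 removes the phosphate from PAP, the by-product of the Met16 step. The activator Met4, with Cbf1, Met31, Met32 and Met28, drives much of the pathway, and Met30 holds it down when sulfur amino acids are plentiful.

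Values are the deposited intensities, on a linear scale that averages close to 1 on each array, and folds and log2 differences come from quantile-normalized values. Each error is the SE of a log2 difference between groups of n = 2 arrays, and adjusted p-values are limma's over all probes tested, with a threshold of 0.05. Rank correlations between replicate arrays were 0.590 and 0.692 in the null-labelled and wild type shift groups, and 0.830 to 0.917 in the other groups. Zeros made up 11.8% of all values, with 3489 on null-labelled shift array A and at most 1799 on any other array. Of the 120 values of the 10 genes, 3 were listed at 0, and 4 others lay under the 10th percentile of their array's positive values. A probe was not tested in a comparison where one of its arrays was at 0. Each array reads a whole culture, so fewer cells with a transcript and less transcript per cell cannot be told apart.

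The strain's marks were checked first. Of the genes whose function BY4741 lacks, MET17 read at most 0.0404 on any array. LEU2 was listed at 0 on 5 arrays but read up to 0.554 on the others. URA3 read 0.0762 to 0.997 and HIS3 0.0645 to 1.44 over the 12 arrays, so only MET17 read as absent throughout. IXR1 itself read 9.75 and 8.64 on the null-labelled arrays in air, against 8.11 and 7.03 on the wild type arrays, and was not lower in hypoxia either, at 0.608 and 1.13 against 0.441 and 0.399. The labels do not say whether the IXR1 probe lies inside the deleted part, so these values do not check the deletion. The arrays are therefore called null-labelled, and directions between genotypes rest on the labels alone. BY4741 is a MAT a strain, and the a-factor gene MFA2 read at least 11.2 on the null-labelled and at least 10.4 on the wild type air arrays. On the hypoxia arrays MFA2 read at most 0.0439 in null-labelled and 0.222 in wild type cells, and on null-labelled shift array A it was listed at 0. The other marks were mixed: of the a-specific genes MFA1 read 0.128 to 4.62, STE2 at most 1.71 and BAR1 at most 2.43, while STE6 was listed at 0 on 6 arrays and read at most 0.0997 on the others. Of the alpha-specific genes SAG1 read up to 1.54, and MF(ALPHA)1, MF(ALPHA)2 and STE3 read at most 0.527, 0.255 and 0.240.

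SUL1 encodes a high-affinity sulfate permease. After the shift SUL1 read 20.1 and 7.70 on null-labelled arrays A and B, against 7.12 and 3.43 on the wild type arrays. In hypoxia SUL1 read 1.57 and 1.96 on the null-labelled arrays, against 4.56 and 4.62 on the wild type arrays. In air SUL1 read 5.20 and 5.93 on the null-labelled arrays, against 4.15 and 4.46 on the wild type arrays. The null-labelled hypoxia arrays were thus the 2 lowest of the 12, below every array of the other groups, and shift arrays A stood above B in both genotypes.

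SUL2 encodes the companion sulfate permease. SUL2 was listed at 0 on null-labelled shift array A and read 2.34 on B, against 0.295 and 1.03 on the wild type shift arrays. In hypoxia SUL2 read 0.364 and 0.378 on the null-labelled arrays, against 0.696 and 0.753 on the wild type arrays. In air the null-labelled arrays read 1.89 and 2.07, against 0.861 and 0.656 on the wild type arrays. SUL2 was lower on shift array A than on B in both genotypes, the reverse of SUL1, and wild type arrays of the 3 conditions overlapped.

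MET3 encodes ATP sulfurylase, which makes APS from sulfate. After the shift MET3 read 4.15 and 8.89 on the null-labelled arrays, against 1.67 and 3.56 on the wild type arrays. In hypoxia MET3 read 0.354 and 0.196 on the null-labelled arrays, against 0.551 and 0.581 on the wild type arrays. In air it read 6.05 and 6.42 on the null-labelled arrays, against 5.55 and 4.18 on the wild type arrays. All 4 hypoxia arrays lay under all 8 others, and wild type shift arrays lay under wild type air arrays.

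MET14 encodes APS kinase, which makes PAPS. After the shift MET14 read 35.3 and 16.2 on the null-labelled arrays, against 13.5 and 14.1 on the wild type arrays. In hypoxia it read 0.154 and 0.124 on the null-labelled arrays, against 0.336 and 0.251 on the wild type arrays. In air MET14 read 17.2 and 18.1 on the null-labelled arrays, against 3.52 and 4.18 on the wild type arrays. Wild type air stood apart from the other air and shift groups as the lowest of them. The null-labelled air arrays had maxima of 24.5 and 20.8 over all probes, against 157 and 201 on the wild type air arrays, so MET14 lay near the top of their scale.

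MET16 encodes PAPS reductase. MET16 read 10.2 and 3.04 on the null-labelled shift arrays, against 4.21 and 4.15 on the wild type shift arrays. In hypoxia MET16 was listed at 0 and read 0.0350 on the null-labelled arrays, against 0.00355 and 0.0848 on the wild type arrays. In air MET16 read 5.03 and 5.07 on the null-labelled arrays, against 1.31 and 1.33 on the wild type arrays. All hypoxia arrays were close to the bottom of the scale, 3 of the 4 under the 10th percentile or at 0, so no fold is given for MET16 against hypoxia.

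MET22 encodes the phosphatase that clears PAP, and its shift, air and wild type groups largely overlapped. MET22 read 1.49 and 6.96 on the null-labelled shift arrays, against 1.99 and 6.27 on the wild type shift arrays. In hypoxia it read 1.97 and 1.08 on the null-labelled arrays, against 3.62 and 2.48 on the wild type arrays. In air MET22 read 6.28 and 4.76 on the null-labelled arrays, against 3.79 and 2.76 on the wild type arrays. Shift array B exceeded A in both genotypes, as for SUL2, by 1.89 log2 units on null-labelled and 1.43 on wild type arrays.

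MET5 encodes the beta subunit of sulfite reductase. MET5 read 16.9 and 6.86 on the null-labelled shift arrays, against 4.65 and 3.56 on the wild type shift arrays. In hypoxia MET5 read 0.165 and 0.181 on the null-labelled arrays, against 0.573 and 0.904 on the wild type arrays. In air MET5 read 6.77 and 6.94 on the null-labelled arrays, against 1.62 and 1.66 on the wild type arrays. Null-labelled arrays did not overlap wild type arrays in any condition, and they were higher after the shift and in air but lower in hypoxia.

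MET10 encodes the alpha subunit of the same enzyme. After the shift MET10 read 20.4 and 8.89 on the null-labelled arrays, against 11.3 and 7.47 on the wild type arrays. In hypoxia MET10 read 0.878 and 0.639 on the null-labelled arrays, against 1.46 and 1.61 on the wild type arrays. In air it read 10.3 and 7.88 on the null-labelled arrays, against 2.38 and 3.08 on the wild type arrays. The order of the groups was that of MET5 except that wild type shift stood above null-labelled air and overlapped it.

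MET1 encodes the methyltransferase that starts siroheme synthesis. After the shift MET1 read 0.378 and 0.505 on the null-labelled arrays, against 0.530 and 0.230 on the wild type arrays. In hypoxia MET1 was listed at 0 and read 0.00491 on the null-labelled arrays, against 0.0700 and 0.134 on the wild type arrays. In air MET1 read 0.823 and 0.621 on the null-labelled arrays, against 0.233 and 0.190 on the wild type arrays. Both null-labelled hypoxia arrays lay below all 10 others.

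MET8 encodes the enzyme that completes siroheme by oxidation and iron insertion, and it ran against the rest of the pathway in null-labelled hypoxia. MET8 read 0.0353 and 0.224 on the null-labelled shift arrays, against 0.140 and 0.275 on the wild type shift arrays. In hypoxia MET8 read 1.82 and 1.51 on the null-labelled arrays, against 0.335 and 0.309 on the wild type arrays. In air it read 0.330 and 0.395 on the null-labelled arrays, against 0.201 and 0.176 on the wild type arrays. The 2 null-labelled hypoxia arrays exceeded all 10 others for MET8. By mean deposited value, in contrast, the null-labelled hypoxia group was the lowest of the 6 for the other 9 genes. For SUL2, MET16 and MET22 single arrays of other groups still read below a null-labelled hypoxia array. The 0.0353 lay under the 10th percentile of its array, which holds 3489 zeros, and quantile normalization raised it to 0.392.

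**Figure D1:**
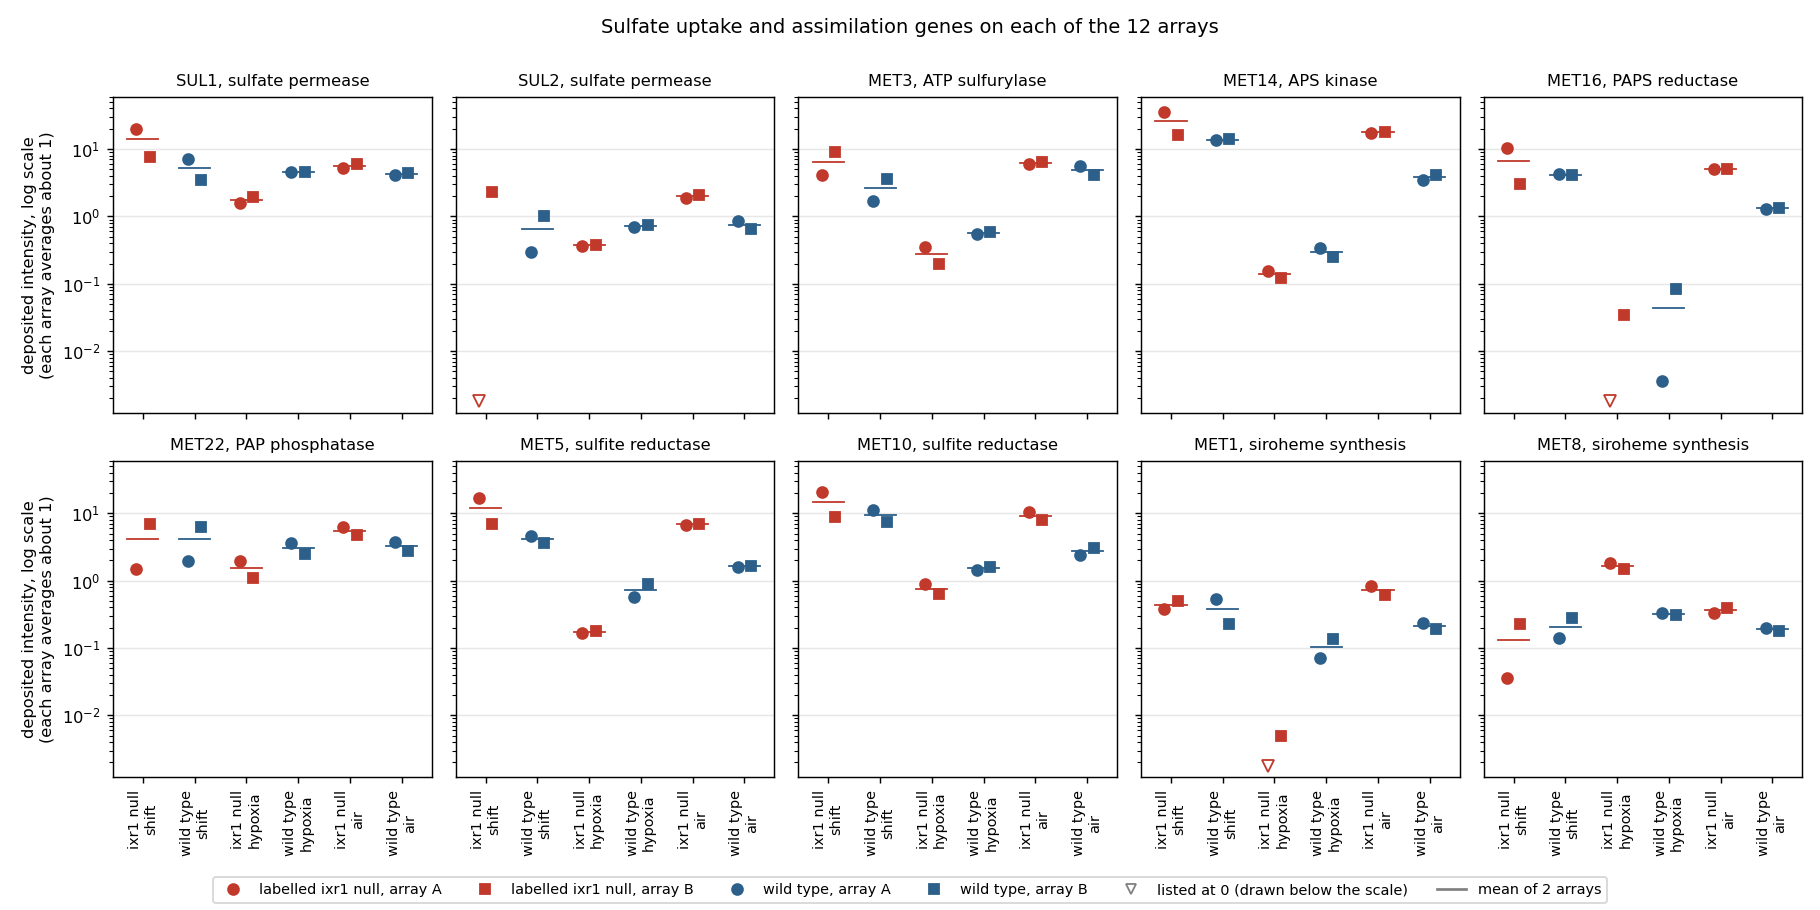
Deposited intensity on a log axis of the 10 genes on each array, with circles for array A, squares for array B, red for arrays labelled ixr1 null, blue for wild type and short lines for means of 2 arrays. MET3, MET14 and MET16 sit lowest on the 4 hypoxia arrays, and MET8 sits highest on the 2 null-labelled hypoxia arrays, at 1.82 and 1.51.

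The first comparison asked how overnight hypoxia differed from air in the wild type. The genes of ATP sulfurylase, APS kinase and PAPS reductase fell: MET3 (9.96-fold, log2 difference -3.32 ± 0.62, adjusted p = 0.00767), MET14 (15.7-fold, -3.98 ± 0.53, adjusted p = 0.00146) and MET16 (adjusted p = 0.00257). The fitted log2 difference of MET16, -5.21 ± 0.73, ran from -6.38 to -4.32 over the alternatives, and its dim hypoxia values do not fix its size. These were 3 of 10 genes tested, where 6.12% of all probes tested fell, and 0 of the 10 rose, where 4.39% of all probes did. The permeases differed little, SUL1 by 0.10 ± 0.58 and SUL2 by -0.25 ± 0.61 log2 units, and so did MET22, at -0.19 ± 0.75. The sulfite reductase genes lay lower without passing the test, MET5 by -1.35 ± 0.52 (adjusted p = 0.163) and MET10 by -0.96 ± 0.53 (adjusted p = 0.371). In siroheme synthesis MET1 differed by -1.18 ± 0.57 (adjusted p = 0.291) and MET8 by 0.65 ± 0.45 (adjusted p = 0.502). The median difference was -1.07 over the 10 genes and 0.01 over all 4969 probes tested. Leaving out wild type air array A, wild type hypoxia array A or wild type hypoxia array B gave adjusted p-values of 0.0655, 0.0545 and 0.0592 for MET3. Differences over 16-fold were seen for 5.21% of all probes here, against 0.664% for shift over air, and MFA2 and IXR1, but not MFA1, were also low on the wild type hypoxia arrays; their part in the result was not tested.

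In null-labelled cells 1 of the 2 permease genes, both activation genes and both sulfite reductase genes fell, and 1 siroheme gene rose. Whether the genotypes differ in this is tested further on as an interaction. SUL2 (6.59-fold, -2.72 ± 0.61, adjusted p = 0.0224), MET3 (36.2-fold, -5.18 ± 0.62, adjusted p = 0.000742) and MET14 (236-fold, -7.88 ± 0.53, adjusted p = 0.000101) fell in hypoxia. Both sulfite reductase genes fell as well, MET5 by 66.3-fold (-6.05 ± 0.52, adjusted p = 0.000177) and MET10 by 15.4-fold (-3.94 ± 0.53, adjusted p = 0.00147). MET8 rose 5.80-fold (2.54 ± 0.45, adjusted p = 0.00568). So 5 of 8 genes tested fell, where 5.34% of all probes did, and 1 rose, where 6.18% of all probes did. SUL1, at -1.60 ± 0.58 (adjusted p = 0.125), and MET22, at -1.95 ± 0.75 (adjusted p = 0.150), did not pass. MET16 and MET1 were not tested because array A was at 0. With zeros raised to a floor, their differences were -6.34 ± 0.47 (adjusted p = 0.000128) and -3.35 ± 0.46 (adjusted p = 0.00247), sizes that the floor sets. The median of the 8 was -3.33, against -0.20 over all 5505 probes tested. Without null-labelled hypoxia array A the MET3 difference was -5.92, and without array B -4.43. On deposited values the MET14 and MET5 differences were -7.00 and -5.31, and MET14 lay near the top of the scale in null-labelled air, so its fold is not exact. The MET8 call was lost without normalization (adjusted p = 0.158). The SUL2 call was lost without normalization too (adjusted p = 0.0599) and when any of its own 4 arrays was left out (adjusted p from 0.0690 to 0.111).

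The shift set 3 hours of nitrogen against air. In the wild type 0 of the 10 genes passed the test, where 0.471% of all probes did, and 3 of the 10 had an unadjusted p under 0.05. MET14 was 1.79 ± 0.53 log2 units higher (adjusted p = 0.187), MET10 1.56 ± 0.53 (adjusted p = 0.248), MET16 1.55 ± 0.73 (adjusted p = 0.367) and MET5 1.19 ± 0.52 (adjusted p = 0.347). For these 4 of 10 genes both shift arrays read above both air arrays in deposited values, where 19.2% of all probes did. For MET3, at -1.01 ± 0.62 (adjusted p = 0.469), both read below, where 19.8% of all probes did. The median over the 10 was 0.61, against 0.04 over all 4672 probes tested.

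In null-labelled cells 0 of 9 genes tested passed for shift over air, where 0.539% of all probes did, and 0 of the 9 had an unadjusted p under 0.05. SUL1 differed by 0.98 ± 0.58 (adjusted p = 0.548), MET14 by 0.31 ± 0.53, MET5 by 0.42 ± 0.52 and MET10 by 0.39 ± 0.53. MET16, at 0.05 ± 0.73, and MET3, at -0.11 ± 0.62, lay close to 0. MET1 was fitted at 0.07 ± 0.57 but ran from -1.20 to 0.38 over the alternatives. Its deposited shift values, 0.378 and 0.505, both lay below its air values, 0.823 and 0.621. Normalization raised the 0.378 of shift array A to 0.652. The signs of MET14, MET16, MET5, MET10, MET1 and MET8 turned under at least 1 other scaling. The median of the 9 was 0.31, against 0.30 over all 2228 probes tested. Without both shift B arrays SUL1 passed (1.67, adjusted p = 0.0480), and 378 of all probes then did, against 12 with them.

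Shift and hypoxia are both low-oxygen conditions, and the APS kinase, PAPS reductase and sulfite reductase genes rose after the shift relative to hypoxia in the wild type. MET14 rose 54.6-fold (5.77 ± 0.53, adjusted p = 0.00107), and MET16 rose at an adjusted p of 0.00161. The fitted log2 difference of MET16, 6.76 ± 0.73, ran from 5.87 to 8.16 over the alternatives and is no exact size. MET5 rose 5.83-fold (2.54 ± 0.52, adjusted p = 0.0170) and MET10 5.77-fold (2.53 ± 0.53, adjusted p = 0.0192). That made 4 of 10 genes, where 4.64% of all probes rose, and 0 of 10 fell, where 3.19% did. MET3, at 2.30 ± 0.62 (adjusted p = 0.0549), and MET1, at 2.08 ± 0.57 (adjusted p = 0.0665), missed the threshold. MET3 passed under 4 of 21 alternatives, among them leaving out dim probes (adjusted p = 0.0464), and MET1 under 3, among them floored zeros (adjusted p = 0.0332). SUL1, SUL2, MET22 and MET8 ranged from -0.33 to 0.28. Fitted on only the arrays of the groups compared, MET5 (adjusted p = 0.100) and MET10 (adjusted p = 0.0933) no longer passed. Leaving out wild type hypoxia array A, hypoxia array B or shift array A likewise ended both calls, at adjusted p from 0.0518 to 0.149 for MET5 and from 0.0607 to 0.125 for MET10.

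On the null-labelled arrays SUL1, both activation genes and both sulfite reductase genes rose after the shift relative to hypoxia, and MET8 fell. A difference between genotypes in this contrast was not tested. MET14 rose 292-fold (8.19 ± 0.53, adjusted p = 5.32e-05), MET5 88.5-fold (6.47 ± 0.52, adjusted p = 8.91e-05) and MET3 33.6-fold (5.07 ± 0.62, adjusted p = 0.000702). MET10 rose 20.1-fold (4.33 ± 0.53, adjusted p = 0.000745) and SUL1 rose by 2.58 ± 0.58 log2 units (adjusted p = 0.0167). MET8 fell by 2.18 ± 0.45 log2 units (adjusted p = 0.0108), with its shift array A value raised by normalization as given above. Hence 5 of 7 genes tested rose, where 11.8% of all probes did, and 1 fell, where 2.60% did. MET22 differed by 1.21 ± 0.75 (adjusted p = 0.308), and SUL2, MET16 and MET1 were not tested because of values at 0. The SUL1 call was lost without null-labelled shift array A (adjusted p = 0.125) or hypoxia array A (adjusted p = 0.0891), and the MET8 call without that hypoxia array (adjusted p = 0.0583). Both were also lost on only the arrays of the groups compared (0.119 for SUL1, 0.117 for MET8), and MET8 ran from -4.62 to -2.06 over the alternatives. MET3 was 5.82 without null-labelled hypoxia array A and 4.33 without array B, and MET5 5.85 without null-labelled shift array A and 7.08 without array B. MET14 was 7.04 with arrays centred on their medians. The 3 comparisons within a genotype share arrays, so their values for a gene are not independent of each other.

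**Figure D2:**
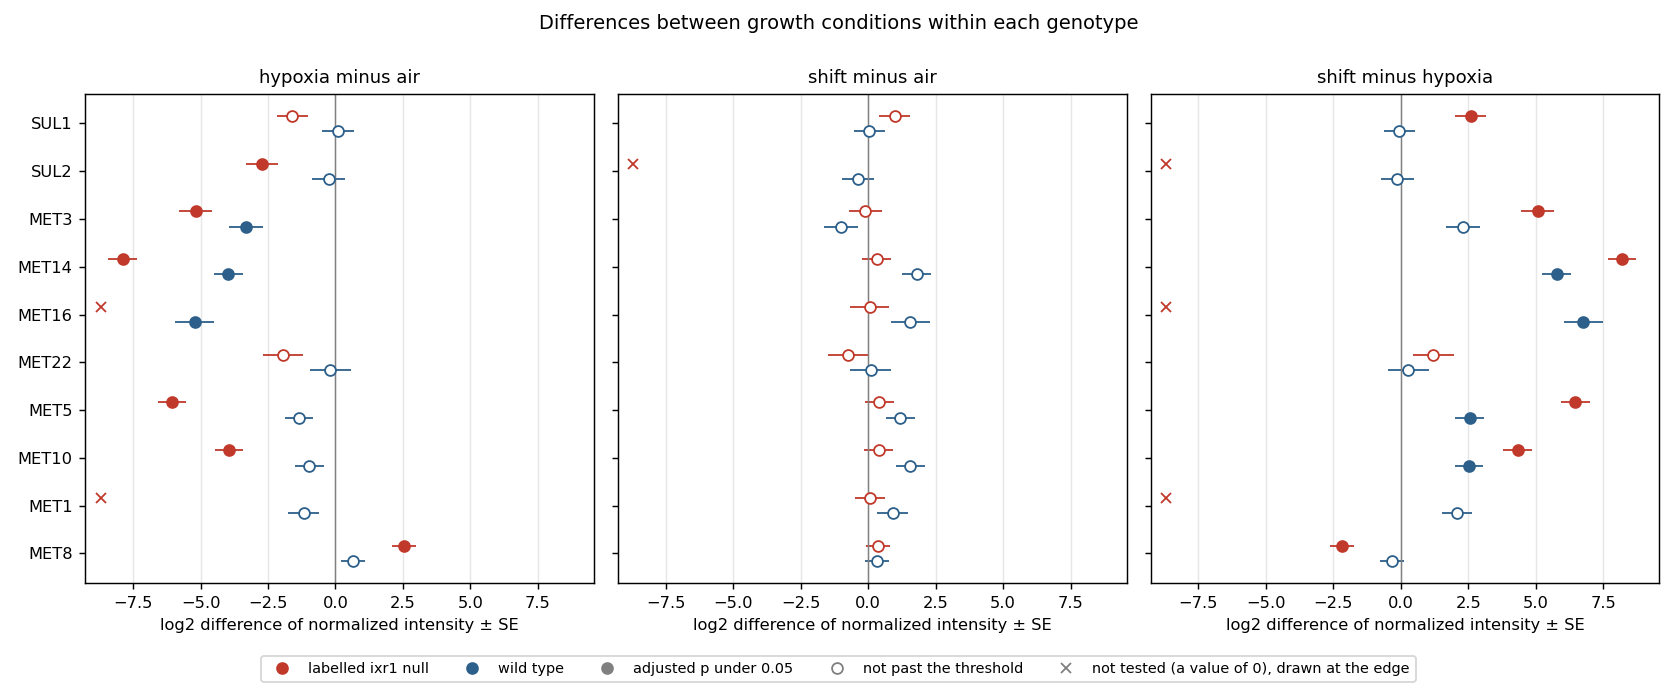
Log2 differences of normalized intensity with SE between growth conditions, for arrays labelled ixr1 null (red) and wild type (blue), with filled points past an adjusted p of 0.05, open points not past it and crosses at the left edge for genes not tested. MET14 lies farthest left for hypoxia minus air among the tested null-labelled values, at -7.88, and MET8 lies on the other side of 0, at 2.54.

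Between genotypes in air, all 10 genes read higher on the null-labelled arrays, and none passed the test. MET14 differed by 2.11 ± 0.53 log2 units (4.33-fold, adjusted p = 0.468), MET5 by 1.98 ± 0.52 (adjusted p = 0.545), MET16 by 1.80 ± 0.73 (adjusted p = 0.691), MET10 by 1.65 ± 0.53 (adjusted p = 0.635) and MET1 by 1.53 ± 0.57 (adjusted p = 0.639). By limma 0 of the 10 genes and 0% of all 5043 probes passed, while 5 of the genes and 336 of the probes had an unadjusted p under 0.05. SUL2 differed by 1.11 ± 0.61, MET22 and MET8 by 0.61 each, and SUL1 and MET3 by 0.24 each. In deposited values both null-labelled arrays exceeded both wild type arrays for 10 of 10 genes, where 39.5% of all probes did so. The median was 1.32 over the 10 genes and 0.08 over all probes tested. The sign of all 10 differences held under each scaling tried. Counted from the highest difference, MET14 ranked 33rd, MET5 54th and MET16 80th of the 5043 probes.

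In hypoxia the direction was the other way for most of the genes. MET5 was 6.61-fold lower on the null-labelled arrays (-2.72 ± 0.52, adjusted p = 0.0971), and MET8 was 5.67-fold higher (2.50 ± 0.45, adjusted p = 0.0804). MET14 differed by -1.79 ± 0.53 (adjusted p = 0.223), MET3 by -1.62 ± 0.62 (adjusted p = 0.309) and SUL1 by -1.46 ± 0.58 (adjusted p = 0.326). SUL2, MET10 and MET22 differed by -1.37, -1.33 and -1.15. By limma 0 of 8 genes tested passed, where 0.0372% of all probes did, and 6 of the 8 had an unadjusted p under 0.05. In deposited values both null-labelled arrays read below both wild type arrays for 8 of 10 genes, where 21.2% of all probes did, and above them for MET8, where 35.6% did. The median of the 8 was -1.41, against -0.16 over all 5379 probes tested. With zeros kept and raised to a floor, MET8 passed, at an adjusted p of 0.0245, with the same difference (2.50) and a smaller SE (0.33).

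The difference between those 2 genotype effects was tested as an interaction of genotype with hypoxia. MET5 gave -4.70 ± 0.74 (adjusted p = 0.0835), MET14 -3.90 ± 0.76 (adjusted p = 0.115), MET10 -2.98 ± 0.76 (adjusted p = 0.180) and SUL2 -2.47 ± 0.86 (adjusted p = 0.276). MET8 lay on the other side, at 1.89 ± 0.64 (adjusted p = 0.249). By limma 0 of 8 genes and 0% of all 4844 probes passed, while 5 of the genes and 672 of the probes had an unadjusted p under 0.05. MET5 ranked 11th and MET14 34th from the lowest of the 4844. MET5 passed under 2 alternatives, at an adjusted p of 0.0488 with zeros floored and 0.0449 on only the arrays of the groups compared. Its difference was the same in both, with smaller SEs of 0.63 and 0.51.

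After the shift the genotypes overlapped for most of the genes. MET5 was 1.20 ± 0.52 log2 units higher on the null-labelled arrays (adjusted p = 0.850), SUL1 1.18 ± 0.58 and MET3 1.14 ± 0.62 (both at adjusted p = 0.907). MET14 and MET1 differed by 0.63 and 0.70, MET10 by 0.47, MET8 by 0.65, MET16 by 0.29 and MET22 by -0.23. The signs of MET14, MET16, MET10, MET1 and MET8 turned under at least 1 other scaling, so their fitted directions are not settled. By limma 0 of 9 genes and 0% of all 2231 probes passed, while 1 of the genes and 127 of the probes had an unadjusted p under 0.05. SUL1, MET3, MET14 and MET5 were the 4 of 10 genes for which both null-labelled arrays exceeded both wild type arrays in deposited values. Of all probes 4.12% did, a share held down by null-labelled shift array A, where 3489 probes were at 0 and could not. Of the 10 genes only SUL2 was at 0 there, so 4 of 10 and 4.12% are not like shares. The fitted sign of MET14 depends on the scaling. The interaction of genotype with the shift passed for 0 of 9 genes and for 0% of all 2178 probes, of which 161 had an unadjusted p under 0.05. Its smallest adjusted p was that of MET14, 0.709, at -1.48 ± 0.76.

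**Figure D3:**
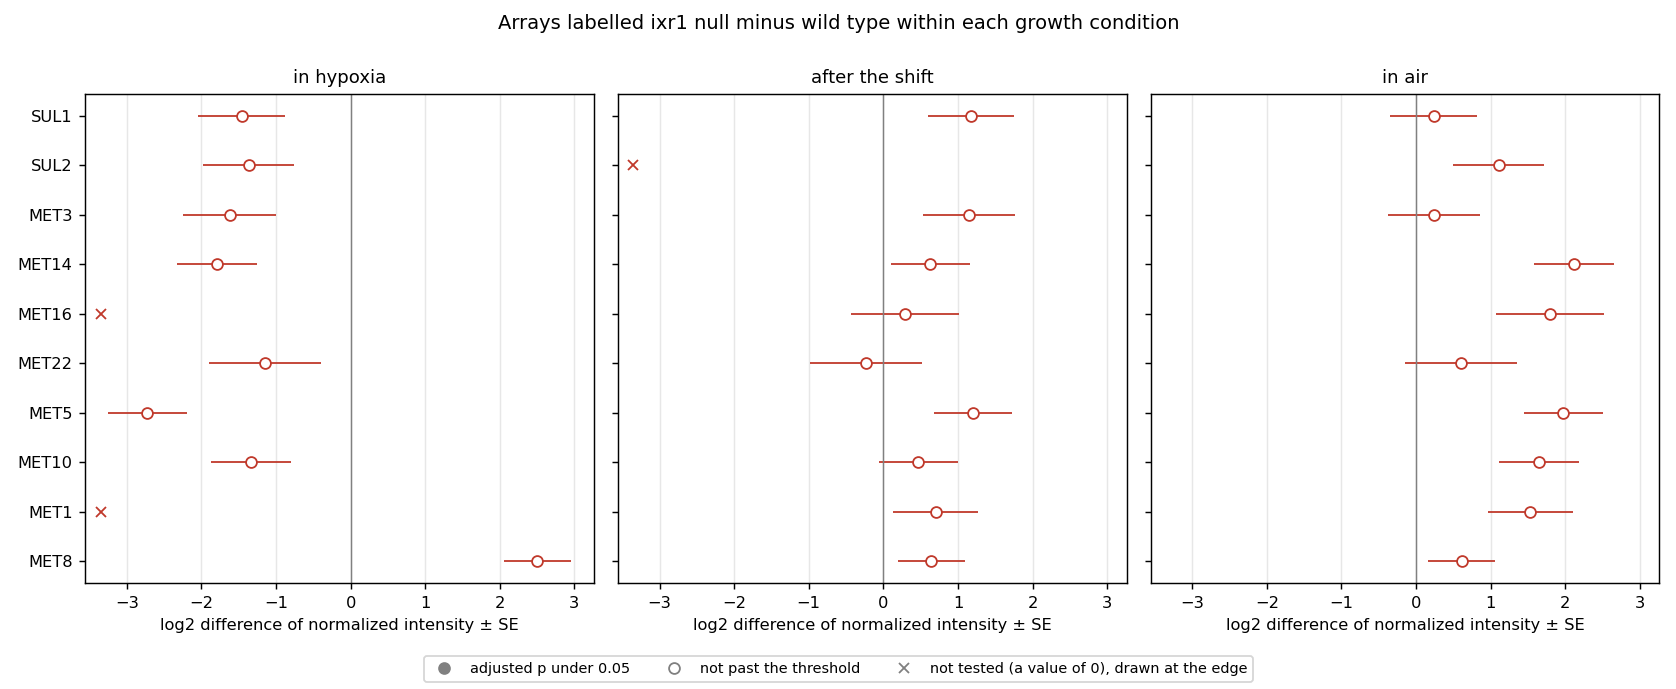
Log2 differences of normalized intensity with SE, arrays labelled ixr1 null minus wild type, in hypoxia, after the shift and in air, with open points for values not past an adjusted p of 0.05 and crosses at the left edge for genes not tested. MET5 lies at -2.72 in hypoxia and 1.98 in air, and MET8 lies at 2.50 in hypoxia.

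How alike the genes ran was described by Pearson correlations of log2 normalized values across arrays, which share the condition and each array's depth of zeros. Over all 12 arrays MET5 and MET10 were each other's closest probe among the 2154 compared, at r = 0.979. MET14 correlated at 0.983 with MET16 (11 arrays) and at 0.968 with MET10, although its closest probe was PEX10, of peroxisome import, at 0.983. The closest probe to MET3 was IPP1, the cytosolic inorganic pyrophosphatase, at 0.985. Those closest to SUL1, MET22 and MET8 were ATP16 at 0.916, DFM1 at 0.939 and AAD3 at 0.943. MET8 ran against all 9 other genes, at -0.54 to -0.77.

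The hypoxia arrays stand apart for most of these genes, so the correlations were also taken over the 8 air and shift arrays. There MET14, MET16, MET5 and MET10 still correlated pairwise at 0.934 to 0.963. MET10 was the closest of all probes to MET16, at 0.963, and MET28, a cofactor of Met4, was the closest to MET5, at 0.981. The closest probes to the other genes compared lay outside the 10. They were REX3 for SUL1 (0.96), VMA3 for MET3 (0.95), DLD3 for MET14 (0.96) and MRPS12 for MET22 (0.99). SNL1 was closest to MET10 (0.96), YPI1 to MET1 (0.97) and PET100 to MET8 (0.97). MET3 did not run with MET14, MET16, MET5 and MET10, at -0.26 to 0.03. SUL2 correlated at 0.887 with MET22 and at 0.872 with MET3 (7 arrays each). On normalized values MET8 changed sides without the hypoxia arrays, to 0.825 with MET14. The MET8 correlations use null-labelled shift array A, where normalization raised MET8 from 0.0353 to 0.392. By mean deposited value the null-labelled shift group was the lowest for MET8 and the highest for MET14. Correlations were not taken on deposited values, so the side of MET8 over these arrays is not settled.

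**Figure D4:**
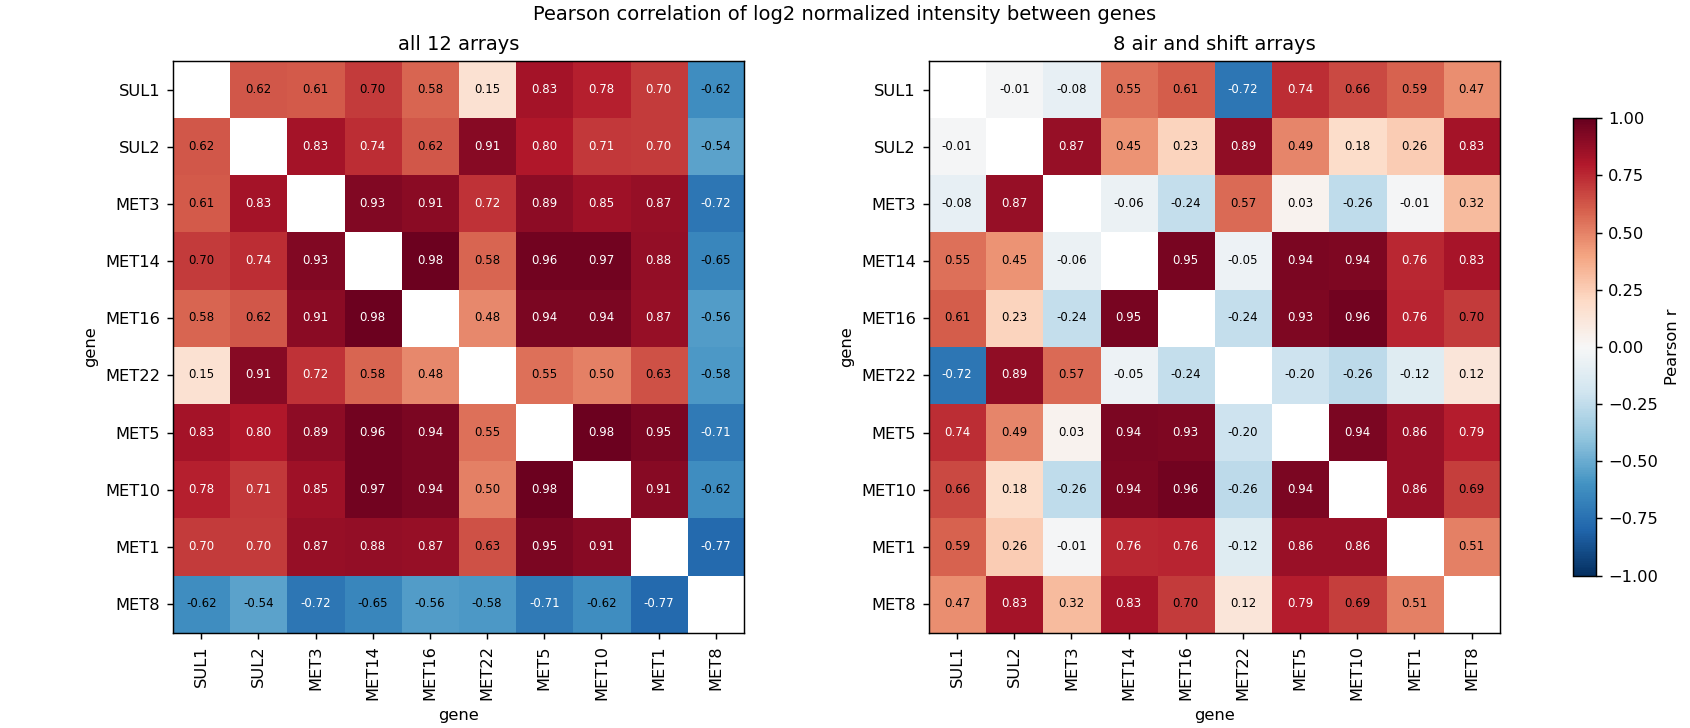
Pearson correlation of log2 normalized intensity between each pair of the 10 genes, over all 12 arrays on the left and over the 8 air and shift arrays on the right, with fewer arrays where a value is 0. MET5 with MET10 reads 0.98 on the left, and MET8 turns from negative on the left to positive on the right, as with MET14 at 0.83. The MET8 values include that of null-labelled shift array A, which normalization raised from 0.0353 to 0.392, so this turn is not settled.

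The rest of sulfur metabolism was read from 41 further genes in 8 lists. In hypoxia over air in null-labelled cells 6 of 39 tested fell and 3 rose, and in the wild type 8 of 37 tested fell and 1 rose. That is 15.4% and 21.6% fallen, against 5.34% and 6.12% of all probes, and the median differences were -0.75 and -0.35, against -0.20 and 0.01. In transsulfuration, CYS3, of cystathionine gamma-lyase, fell in null-labelled cells (-4.45 ± 0.46, adjusted p = 0.000386) and in the wild type (-2.94 ± 0.46, adjusted p = 0.00308), as 1 of 4 genes in each. Among 12 methionine and S-adenosylmethionine genes tested, 2 fell in null-labelled cells, MHT1 (-4.32 ± 0.56, adjusted p = 0.00111) and SAM2 (-3.96 ± 0.71, adjusted p = 0.00619). On null-labelled air arrays A and B SAM2 read 24.0 and 20.8, at or near their maxima of 24.5 and 20.8 over all probes. The size of its fall is therefore not exact. In the wild type 3 of 12 fell, SAM1, an S-adenosylmethionine synthetase (-7.49 ± 0.62, adjusted p = 0.000378), MHT1 (-4.60 ± 0.56, adjusted p = 0.000949) and SAH1 (-3.04 ± 0.55, adjusted p = 0.00877). On wild type hypoxia array A MHT1 read 0.0424, under the 10th percentile of that array (0.0538), so its wild type size is not fixed. SAM1 was not tested in null-labelled cells, where it read 0.0228 and was listed at 0 in hypoxia, against 19.3 and 17.2 in air.

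Partners of single steps moved too. Of the 3 thioredoxin genes that serve Met16, TRX2 fell in null-labelled cells (-9.56 ± 0.67, adjusted p = 0.000101) and in the wild type (-4.52 ± 0.67, adjusted p = 0.00235). Its null-labelled hypoxia values, 0.0278 and 0.0100, lay under the 10th percentiles of their arrays (0.0734 and 0.0972), so the size is not fixed. TRR1, the thioredoxin reductase, fell in the wild type (-4.06 ± 0.58, adjusted p = 0.00213). Of 6 regulators, MET28 fell in null-labelled cells (-2.50 ± 0.45, adjusted p = 0.00633) and MET30 in the wild type (-3.37 ± 0.84, adjusted p = 0.0319). Ahead of siroheme, HEM3, of porphobilinogen deaminase, rose in null-labelled cells (3.37 ± 0.77, adjusted p = 0.0199), 1 of 4 such genes tested, and 0 of 3 passed in the wild type. On null-labelled air array A HEM3 read 0.0483, under the 10th percentile of that array (0.0577), so the size of its rise is not fixed. Among the genes for other sulfur sources, SOA1, a transporter of inorganic and organic sulfur compounds, rose in null-labelled cells (8.65 ± 0.65, adjusted p = 0.000116) and in the wild type (4.27 ± 0.65, adjusted p = 0.00264). BDS1, an alkyl sulfatase, fell in null-labelled cells (-2.66 ± 0.42, adjusted p = 0.00298). Of the amino acid permeases, MUP3 rose in null-labelled cells (3.78 ± 0.78, adjusted p = 0.0157) and SAM3 fell in the wild type (adjusted p = 0.00223), while 0 of 2 glutathione synthesis genes passed in either. Neither permease was tested in the other genotype because of a 0. SAM3 read 0.0526 and 0 in null-labelled hypoxia, against 0.885 and 0.886 in null-labelled air. MUP3 read 2.86 and 3.63 in wild type hypoxia, against 0.0737 and 0 in wild type air. The wild type hypoxia values of SAM3, 0.00680 and 0.0209, lay under the 10th percentiles of their arrays, so no size is given.

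For shift over hypoxia, 8 of 29 further genes tested rose and 1 fell in null-labelled cells, and 8 of 37 rose and 2 fell in the wild type. The risen shares were 27.6% in null-labelled and 21.6% in wild type cells, against 11.8% and 4.64% of all probes, and the fallen shares 3.45% and 5.41%, against 2.60% and 3.19%. The median differences were 1.71 and 0.91, against 0.61 and 0.04 over all probes. CYS3 (5.16 ± 0.46 and 2.13 ± 0.46), MHT1 (5.02 ± 0.56 and 5.66 ± 0.56), MET30 (4.09 ± 0.84 and 4.49 ± 0.84), TRX2 (9.65 ± 0.67 and 5.18 ± 0.67) and BDS1 (3.69 ± 0.42 and 2.15 ± 0.42) rose in null-labelled and in wild type cells. Dim hypoxia values, given above, leave the sizes of wild type MHT1 and null-labelled TRX2 not fixed. SOA1 fell in both, at -4.95 ± 0.65 in null-labelled and -2.90 ± 0.65 in wild type cells. For shift over air 1 of 30 passed in null-labelled cells, SOA1 (3.70 ± 0.65, adjusted p = 0.0483), where 0.539% of all probes did, and 0 of 35 in the wild type, where 0.471% did. That SOA1 call lay close to the threshold. The median of all probes in that contrast was 0.30 as fitted and -0.29 on deposited values. Calls of the further genes were not checked under the alternatives. Between genotypes 0 of 37 passed in hypoxia, where 0.0372% of all probes did, and 0 of 30 after the shift and 0 of 38 in air, where 0% did.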

How the data were processed

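The intensity values are those the authors deposited, 1 per open reading frame and array, from 32P-labelled cDNA primed with oligo-dT, per the labels' protocols. The scanner, image software, background subtraction and scaling are not stated in the labels or headers. Of 5974 probe names, 5571 matched a RefSeq locus tag (assembly R64) and 403 keep the systematic name.

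Log2 medians of the deposited arrays differed by up to 1.49, so the 12 arrays were quantile normalized with zeros included, zeros were set missing, and the rest were log2 transformed. Because zeros take the lowest ranks, this raises dim values on an array with many zeros. A group-means model over all 12 arrays (6 residual degrees of freedom), with variances moderated by limma (version 3.58.1, R 4.3.3), gave 11 comparisons. Probes with a value on every array of the groups involved were tested, with Benjamini-Hochberg adjustment over them. Figures used Python 3.11.15 and matplotlib 3.10.9. On simulated wild type hypoxia over air data (5928 probes), 60 of 86 changes of 4 log2 units and 8 of 78 changes of 2 were recovered. Of 4805 unchanged probes 3 were called. The simulation changed fewer probes than the 522 called in the data, and recovery depends on that number. These shares therefore do not give the recovery in the data.

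The 10 genes, the further lists and the tests were chosen with earlier results of these data known. All 10 genes are named in every comparison, and up to 4 of smallest p from each further list. Same-letter arrays of the genotypes deviated together (0.257 in air, 0.189 in hypoxia, 0.648 after the shift), each over the 0.1 set for taking letters as pairs. The other pairs of groups ran from -0.06 to 0.30, so these values do not single out pairing within a condition. The labels do not say what the letters stand for, so p-values measure a spread between arrays that may be technical. Arrays carry no counts, and their number limits the precision. Alternatives were other normalizations, floored zeros, a dim-probe filter, own-group fits, the letter as a replicate block, and leaving out arrays. Calls of single genes were checked under them for the 10 genes only. A search of promoters for regulator motifs was planned but is not analysed here.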

Additional observations from a re-analysis of the deposited data

How the results depend on the processing

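Over 2014 alternative values of the 10 genes, 0 changed the sign of a called value, 72 changed sign where neither value was called (70 of these in comparisons with a shift group), and 12 of 19 calls held under every alternative run. Own-group fits, the letter block, the dim-probe filter and leaving out arrays of other groups can change the spread but not the fitted difference. They could not turn a sign, so that 0 rests on the other normalizations, floored zeros and left-out arrays of the groups compared. Fitted on only the arrays of the groups compared, wild type shift over hypoxia gave 2 called genes in place of 4 and the interaction of genotype with hypoxia 1 (MET5) in place of 0. With zeros floored, that interaction again gave 1 (MET5) and genotype in hypoxia gave 1 (MET8), each in place of 0. With zeros floored MET1 also passed in wild type shift over hypoxia. In each of these floored cases the fitted difference was unchanged and its SE smaller. Without both shift B arrays, null-labelled shift over air gave 1 (SUL1) in place of 0. Leaving out 1 array at a time gave 2 to 5 called genes for wild type shift over hypoxia, 2 to 3 for wild type hypoxia over air, 5 to 7 for null-labelled hypoxia over air, 6 for null-labelled shift over hypoxia and 0 for the other 7 comparisons. Those 6 were not the same genes each time: without null-labelled hypoxia array A, SUL1 and MET8 were lost and MET16 and MET1, not tested with it, passed, and without null-labelled shift array A, SUL1 was lost and SUL2 passed. In these fits a lone array left in a group is assumed to vary like the others. The replicate block changed no call of the 10 genes, with 3 called in wild type hypoxia over air and 0 between genotypes in air. MET8 in null-labelled hypoxia over air lost its call without normalization (adjusted p = 0.158), with arrays centred on their medians (0.337) and with quantile normalization of positive values only (0.170), and SUL2 lost its call under 8 of 19 alternatives; the cause was not tested.

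Counts of all probes called ran from 371 to 762 (634 as reported) for null-labelled and 268 to 763 (522) for wild type hypoxia over air, and from 154 to 823 (321) and 125 to 692 (383) for shift over hypoxia. For shift over air they ran from 4 to 378 (12) in null-labelled cells and 3 to 521 (22) in the wild type, the highest without both shift B arrays. Between genotypes they ran from 0 to 35 (2) in hypoxia, 0 to 7 (0) after the shift and 0 to 0 in air, and for the interactions with hypoxia and with the shift up to 15 and 4 (0 each). The median of all probes in null-labelled shift over air was 0.30 as reported, -0.29 on deposited values and -0.78 with arrays centred. In null-labelled shift over hypoxia it was 0.61, -0.14 and -0.53, and between genotypes after the shift 0.16, -0.13 and -1.02. Dim values limit what can be read from MET16 and MET1 in hypoxia.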

Other observations

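JLP1, the dioxygenase that releases sulfite from sulfonates and needs oxygen to do so, split the shift arrays by letter. It read 244 and 5.14 on null-labelled shift arrays A and B, against 105 and 19.4 on the wild type shift arrays. In hypoxia JLP1 read 2.71 and 2.48 on the null-labelled arrays, against 6.41 and 4.52 on the wild type arrays, and in air 11.7 and 10.2 on the null-labelled arrays, against 21.8 and 21.7 on the wild type arrays. Shift array A exceeded all other JLP1 values within each genotype, and none of the 11 comparisons passed for JLP1, with an SE of 1.25 log2 units in those between pairs of groups.

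SOA1, the transporter of other sulfur compounds, read highest in hypoxia. It read 22.1 and 34.5 on the null-labelled hypoxia arrays, against 6.53 and 9.13 on the wild type hypoxia arrays. In air it read 0.111 and 0.0791 on the null-labelled arrays, against 0.671 and 0.279 on the wild type arrays. The groups did not overlap in either condition, and the genotype differences were 1.78 ± 0.65 log2 units in hypoxia (adjusted p = 0.296) and -2.60 ± 0.65 in air (adjusted p = 0.468). Their interaction was 4.37 ± 0.91 (adjusted p = 0.123).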
